A study of Bos taurus with 3 samples.

Results

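miR-101 (bta-miR-101, MIMAT0003520) was among the most abundant miRNAs of large dense-core vesicles from bovine chromaffin cells. Its level differed between the library labelled a biological replicate and those labelled technical replicates. It is 1 of 793 mature miRNAs in the count table and takes up 2 of the 919 rows, 1 for each of its hairpins, mir-101-1 and mir-101-2. It was chosen by its high read counts and by its lower level in the biological replicate than in the technical replicates. Its difference between preparations is therefore given as a description, with no test. The small RNA came from vesicles of the adrenal medulla of cows from a local slaughter, with 500 ng of RNA put into each library. No treatment is named. The groups were 1 library labelled a biological replicate and 2 libraries labelled technical replicates, and the labels leave unsaid what was repeated to make the technical pair. Throughout, the preparations are the biological library and the technical pair. Effects of the preparation, of library making and of the sequencing run cannot be told apart in this design. Number of animals per preparation, breed, sex and age are not given either.

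miRNAs are short RNAs that guide Argonaute proteins to messenger RNAs, mostly through the seed near their 5′ end, and lower the output of those messages. miR-101 is conserved across vertebrates and is known in human and mouse cells for repressing EZH2, the methyltransferase of the Polycomb repressive complex, and also PTGS2 (cyclo-oxygenase), MCL1 (a survival factor) and FOS. It is well expressed in brain, where it is known in mice to shape neuronal excitability during development. Chromaffin cells are the adrenal cells that secrete catecholamines, and their large dense-core vesicles store catecholamines and peptides. Only vesicle RNA was compared here, with no whole-cell library beside it, so the values show neither enrichment over the cell nor a place inside the vesicle.

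The libraries held 6708654 counts in the biological replicate and 5546771 and 6251664 counts in technical replicates 1 and 2 when every mature miRNA entered the total a single time. The endocrine miRNA miR-375 led each library. The chromaffin and endocrine markers miR-375 and miR-7 summed to 473000 CPM (counts scaled to a common library total) in the biological replicate and to 440620 and 428375 CPM in technical replicates 1 and 2. Most of this sum was miR-375, while miR-7 had 56414 CPM in the biological replicate and 59224 and 70296 CPM in technical replicates 1 and 2. Neither of them passed edgeR's quasi-likelihood test between preparations, which 37.9% of 367 miRNAs passed (adjusted p = 0.23 for miR-375 and 0.95 for miR-7), although miR-375 passed in DESeq2 and without a count filter. The hepatocyte marker miR-122 had 1 count in the biological replicate and 6 in each technical replicate. The p-values below rest on the spread of the technical pair alone and compare these libraries, not animals.

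The hairpins of miR-101 lie in look-alike surroundings. In the RefSeq annotation of the assembly ARS-UCD2.0, MIR101-1 lies within the span of the long non-coding RNA gene LOC132344975, between AK4 and JAK1. MIR101-2 lies within the span of the protein-coding gene RCL1 (an RNA processing factor), with JAK2 and AK3 as the next protein-coding genes. AK3 and AK4 encode adenylate kinases of mitochondria, and JAK1 and JAK2 encode kinases of cytokine receptors, so both hairpins sit between a member of each family. Among the 10 nearest genes on each side, no other miRNA gene was listed for MIR101-1 and only MIR2471 for MIR101-2. Both arms of miR-2471 had 0 counts in all 3 libraries, which allows up to 0.447 CPM in the biological replicate and 0.541 and 0.480 CPM in technical replicates 1 and 2. No co-measured neighbour hairpin was thus at hand for miR-101. The deposited tables hold a single arm of miR-101, without an arm suffix.

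The counts could not tell the hairpins apart, because the rows were nearly equal. In the biological replicate, the mir-101-1 row held 128270 counts and the mir-101-2 row 128462. In technical replicate 1 they held 186347 and 186876 counts, and in technical replicate 2 they held 209120 and 209486. The mir-101-2 row was the higher in every library, by 192 counts in the biological replicate and by 529 and 366 in technical replicates 1 and 2. These net differences equalled 0.149% of the row in the biological replicate and 0.283% and 0.175% in technical replicates 1 and 2, so the technical pair was further apart than the biological replicate and technical replicate 2. The ratio of the rows averaged 0.9981 ± 0.0006 (SD, n = 2 preparations, with the technical pair averaged). Over the 3 libraries together the rows were 0.207% apart, which placed miR-101 28th from the closest among the 50 miRNAs with several rows and at least 100 counts. Both hairpins carry the same mature identifier. How reads were assigned to hairpins is not given in the sources used here, so miR-101 is represented by the mir-101-2 row.

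On average miR-101 was the 6th most abundant miRNA, but the preparations placed it differently. Its level was 19149 CPM in the biological replicate, while technical replicates 1 and 2 had 33691 and 33509 CPM. The biological library lay below both technical libraries, which were almost equal. As a share of all miRNA counts miR-101 held 1.91% in the biological replicate, with an exact Clopper-Pearson 95% interval of 1.905 to 1.925%. The share was 3.37% in technical replicate 1, with an interval of 3.354 to 3.384%, and 3.35% in technical replicate 2, with an interval of 3.337 to 3.365%. The intervals of the technical pair overlapped and that of the biological replicate stood apart. They cover counting error only, and with 128462 or more counts of miR-101 per library they are narrow beside the gap between preparations. The mean share was 2.64% ± 1.02 (SD, n = 2 preparations). miR-101 ranked 11th in the biological replicate and 6th in both technical replicates. With miR-375 left out of the total, an alternative chosen after seeing the data, the share was 3.28% in the biological replicate and 5.45% and 5.22% in technical replicates 1 and 2.

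**Figure D1:**
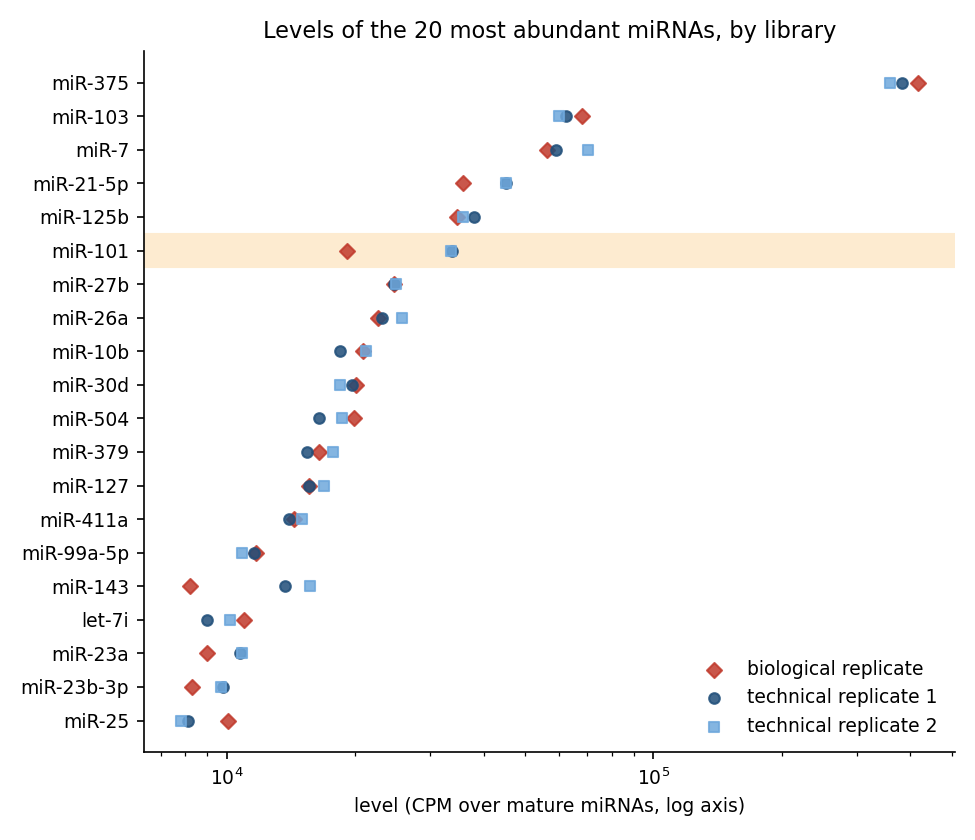
Levels of the 20 miRNAs with the highest mean, in CPM on a log axis, with 1 symbol per library and miR-101 shaded. The biological replicate of miR-101 lies at 19149 CPM, left of the overlapping technical replicates at 33691 and 33509 CPM.

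The spread between preparations leaves the place of miR-101 among its neighbours uncertain. Directly above it came miR-7 (6.06% ± 0.590), a miRNA of endocrine cells, miR-21-5p (4.04% ± 0.665), which is widely expressed and raised in many tumours, and miR-125b (3.57% ± 0.166), known from neural differentiation. Directly below it came miR-27b (2.47% ± 0.0113), miR-26a (2.35% ± 0.128) and miR-10b (2.04% ± 0.0756; all SD, n = 2). The means of 7 of the other 19 most abundant miRNAs, from miR-125b down to miR-379, fell within 1 SD of the mean of miR-101. Its SD equalled 38.7% of its mean, while this figure had a median of 7.38% among the other 19. Of these 19, miR-143 had the highest figure, 40.03%, slightly above that of miR-101.

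miR-101 combined a very close technical pair with a distant biological replicate. Between the technical replicates its log2 ratio of CPM was -0.01, whereas the median absolute value of this ratio was 0.08 over the 62 miRNAs whose mean reached 1000 CPM. Only 3 of the 62 had a closer technical pair on this scale, which uses library totals and not TMM. In edgeR's fit over 367 miRNAs, scaled by TMM, the log2 fold change of miR-101 for the biological replicate over the technical replicates was -0.63 ± 0.14 (SE). Its level in the biological replicate was 57.0% of the technical mean when CPM were compared directly. Of the 62, miR-146b, miR-132 and miR-143 had lower log2 fold changes (-1.39, -1.11 and -0.66). The median log2 fold change was 0.15 over the 62 and 0.01 over all 367. Counted in CPM, miR-101 was lower by 14451 than the technical mean, ahead of miR-21-5p and miR-7 and of the rest of the 367. That was 20.1% of the summed losses of the miRNAs that were lower in CPM. CPM are shares of a fixed total, so such losses depend on gains elsewhere, as of 46848 CPM for miR-375. Under TMM, miR-21-5p and miR-7 had log2 fold changes of only -0.16 and -0.02.

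**Figure D2:**
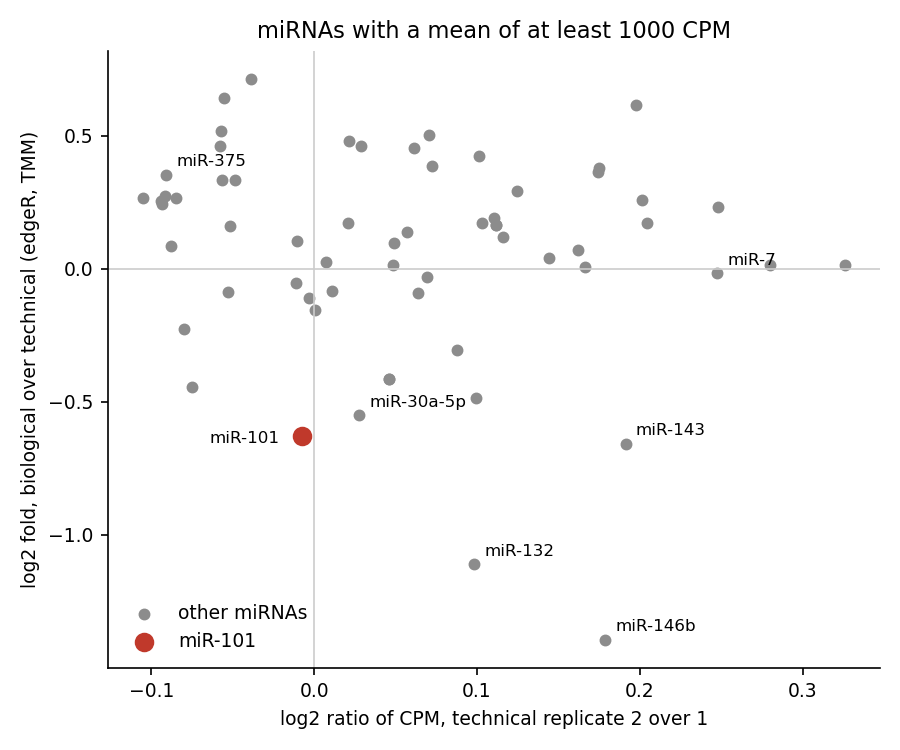
The 62 miRNAs whose mean reached 1000 CPM are shown. The horizontal axis gives the log2 ratio of CPM within the technical pair, by library totals. The vertical axis gives the log2 fold change of the biological over the technical replicates, scaled by TMM. miR-101 lies near 0 on the horizontal axis, at -0.01, and at -0.63 on the vertical axis, while miR-143 at -0.66 lies further right.

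The scaling between libraries bears on these folds, since the median log2 fold change over the 367 miRNAs was 0.18 higher under TMM than under library totals. Ratios of counts within a library do not depend on scaling. miR-101 had 4.60% of the counts of miR-375 in the biological replicate, against 8.83% and 9.36% in technical replicates 1 and 2. This log2 ratio was lower in the biological replicate by a difference of -0.98, with an SD of 0.06 between the technical replicates. Set against miR-27b, a miRNA known from vessels and fat cells, miR-101 had 77.6% of its counts in the biological replicate and 137% and 134% in technical replicates 1 and 2, so the order of the pair differed between preparations. Against miR-26a it had 84.6% in the biological replicate and 146% and 129.8% in technical replicates 1 and 2, again in the opposite order. Against 18 of the other 19 most abundant miRNAs the log2 ratio of miR-101 was lower in the biological replicate, with differences down to -1.15 for miR-25. The exception was miR-143, with 0.03. Its ratio lay at 233% in the biological replicate and at 246% and 214% in technical replicates 1 and 2, so the biological value fell between the technical ones.

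**Figure D3:**
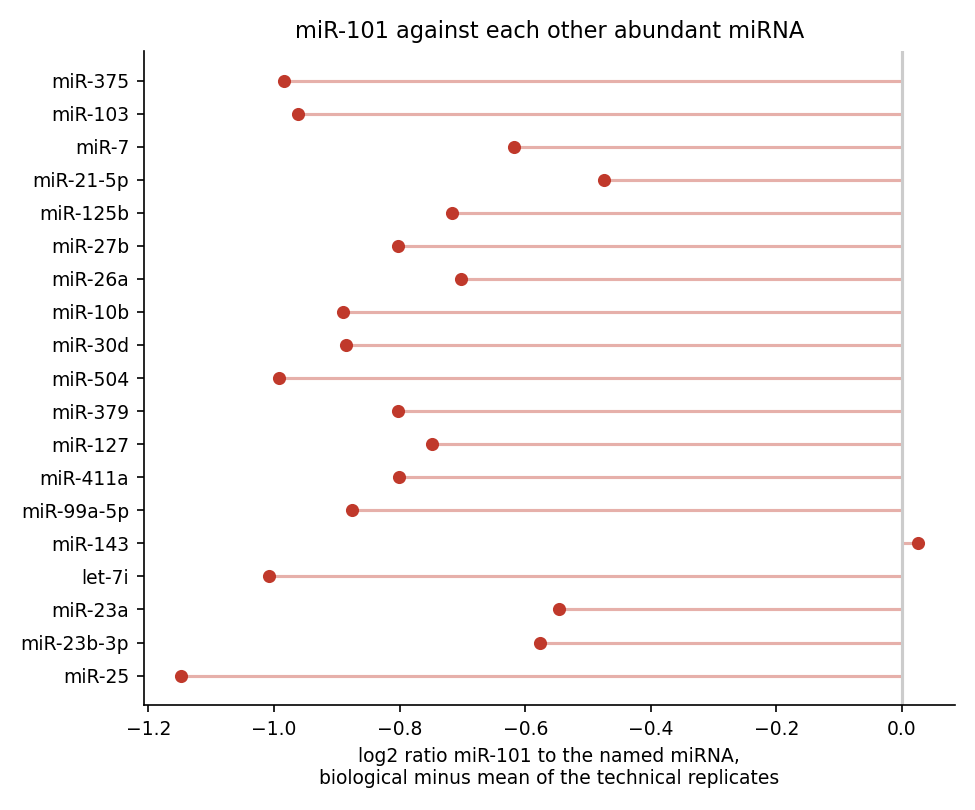
The log2 ratio of miR-101 to each of the other 19 most abundant miRNAs in the biological replicate, minus its mean over the technical replicates. The points lie below 0, down to -1.15 for miR-25, except that of miR-143 at 0.03.

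The miRNAs with profiles most like that of miR-101 were of mixed kinds. Likeness was the Euclidean distance between values of log2(CPM + 1) centred on their mean over the 3 libraries, among the 61 other miRNAs whose mean reached 1000 CPM. The nearest were miR-30a-5p (distance 0.07), miR-126-3p (0.14), miR-143 (0.14), miR-140 (0.16) and miR-199a-3p (0.18), against a median distance of 0.65. miR-199c stood at the same distance, because its counts equalled those of miR-199a-3p throughout. miR-30a-5p, of the broadly expressed miR-30 family, had 2802 CPM in the biological replicate and 4608 and 4696 CPM in technical replicates 1 and 2. miR-140, a miRNA best known from cartilage, had 5795 CPM in the biological replicate and 9163 and 8698 CPM in technical replicates 1 and 2. With 3 libraries, of which 2 are a technical pair, this likeness rests mainly on the gap between the biological replicate and that pair.

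**Figure D4:**
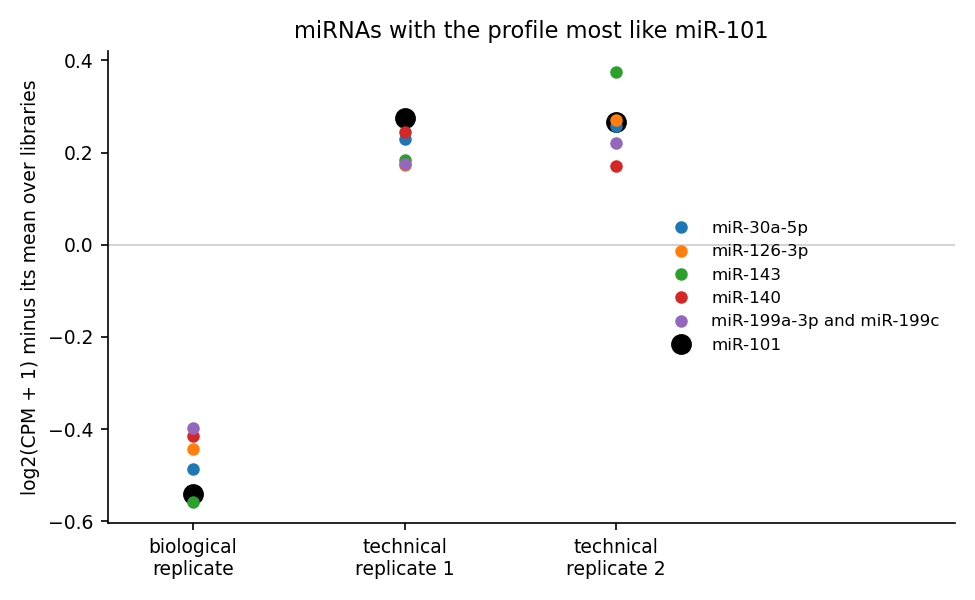
Values of log2(CPM + 1) minus the mean over the 3 libraries, for miR-101 (large black points) and the nearest miRNAs. miR-101 lies at -0.54 in the biological replicate and at 0.27 in both technical replicates, with the other points close to it in each library.

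Among these miRNAs, miR-126-3p, miR-143 and miR-199a-3p are markers of the vessel wall and connective tissue. They were named for profiles like that of miR-101, so their lower values in the biological replicate follow from that choice. They also make up most of the sums of their marker lists and are among the members counted as lower. Those sums and counts, and the median of the smooth muscle and fibroblast list, are thus not separate evidence. miR-143, a smooth muscle miRNA, had 8206 CPM in the biological replicate and 13712 and 15656 CPM in technical replicates 1 and 2. The smooth muscle and fibroblast list held miR-143, miR-145, miR-199a, miR-199b and miR-214. It summed to 10249 CPM in the biological replicate and to 16827 and 18867 CPM in technical replicates 1 and 2. Nearly all of its CPM came from miR-143 and miR-199a-3p. Of its 6 mature members, 5 were lower and 1 did not pass edgeR's quasi-likelihood test at an adjusted p of 0.05, where 37.9% of all 367 miRNAs passed, 20.2% lower and 17.7% higher. Its median log2 fold change was -0.93, against 0.01 over all 367. The counts of miR-199a-3p equalled those of miR-199c, so these reads are not certain to belong to it, and miR-145 had only 11 counts in the biological replicate and 14 and 12 in technical replicates 1 and 2. The endothelial arms miR-126-3p and miR-126-5p summed to 1130 CPM in the biological replicate and to 1820 and 1888 CPM in technical replicates 1 and 2, and both were lower. The leukocyte list (miR-142, miR-146a, miR-150, miR-155 and miR-223) summed to 123 CPM in the biological replicate and to 281 and 279.6 CPM in technical replicates 1 and 2, with 2 of 5 tested members lower (miR-146a and miR-142-5p). In DESeq2 the call of miR-142-5p was lost (adjusted p = 0.099), at a log2 fold change of -0.71 against -0.69 in edgeR. The erythrocyte list (miR-451, miR-486 and miR-144) summed to 1097 CPM in the biological replicate and to 898 and 837 CPM in technical replicates 1 and 2, nearly all of it miR-486, the 1 of 2 tested members that was higher. miR-451 had 16.8 CPM in the biological replicate and 23.6 and 20.2 CPM in technical replicates 1 and 2, a log2 fold change of -0.19 that did not pass. None of the members of these lists was at 0 in all libraries. miR-101 is itself expressed in many cell types. In these preparations fewer particles that carry a miRNA and less of it in each cannot be told apart. The part of vessel wall, connective tissue or blood RNA in the miR-101 difference was not tested.

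miR-144, a miRNA of red blood cells whose seed overlaps that of miR-101, was at the edge of detection. It had 4 counts in the biological replicate (0.596 CPM; exact 95% interval of the count 1.09 to 10.2) and 5 and 6 counts in technical replicates 1 and 2 (0.901 and 0.960 CPM). Of these related miRNAs, miR-101 therefore made up nearly all counts in each library. No difference in miR-144 between preparations was detectable at this depth.

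Other miRNAs known in human or mouse cells to target EZH2 were not uniformly lower in the biological replicate, as miR-101 was. The list held 10 mature miRNAs, of which 9 had at least 10 counts in a library, miR-101 included. miR-217 had 2 counts in the biological replicate and 3 and 2 in technical replicates 1 and 2. Of the 8 tested members other than miR-101, 1 was higher, 1 was lower and 6 did not pass, where 37.9% of all miRNAs passed. These 8 include both miR-124a and miR-124b, whose counts were identical. The median log2 fold change of these 8 was 0.06, against 0.01 over all 367. miR-25, of the miR-106b-25 cluster, was higher, with 10056 CPM in the biological replicate and 8118 and 7801 CPM in technical replicates 1 and 2. Its log2 fold change was 0.52 ± 0.11 (SE; edgeR). miR-214, a connective tissue miRNA that is also on the list of vessel wall markers, was lower, with 18.5 CPM in the biological replicate and 48.5 and 47.8 CPM in technical replicates 1 and 2. Its log2 fold change was -1.20 ± 0.18 (SE; edgeR). Both miR-25 and miR-214 kept their sign and their call in the alternative fits. The size of their adjusted p varied widely between these fits and is not given.

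The members that did not pass included abundant ones. miR-26a had 22637 CPM in the biological replicate and 23077 and 25820 CPM in technical replicates 1 and 2, so the technical pair was further apart than the biological replicate and technical replicate 1. Its log2 fold change of 0.07 and that of miR-26b, 0.04, turned negative with library totals (-0.11 and -0.14), and also in a fit restricted to means of at least 100 CPM. miR-30d had 20072 CPM in the biological replicate and 19693 and 18453 CPM in technical replicates 1 and 2. In the biological replicate miR-26a and miR-30d both lay above miR-101, whereas in the technical replicates both lay below it. miR-138, a miRNA enriched in neurons, had 16.5 CPM in the biological replicate and 13.9 and 17.1 CPM in technical replicates 1 and 2. The neuronal miR-124a and miR-124b had identical counts, 10 in the biological replicate and 13 and 16 in technical replicates 1 and 2. They cannot be told apart here, although both entered the count of members above.

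The way rows enter the total also moves the printed level of miR-101. In the authors' deposited CPM, whose total counts a miRNA with several hairpins once per hairpin, the mir-101-2 row had 14693 CPM in the biological replicate and 25493 and 24958 CPM in technical replicates 1 and 2. In the authors' log2 values it had 13.84 in the biological replicate and 14.64 and 14.61 in technical replicates 1 and 2. The biological replicate was the lowest on each of these scales.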

How the data were processed

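The authors deposited raw read counts per mature miRNA and hairpin row, and beside them CPM computed by the authors over the total of all rows. A second deposited table holds log2 CPM values by the authors for 459 rows. The submitters' processing notes name UMD3.1 and edgeR, while aligner, counting tool and miRBase version are not stated there. No sequence table was used, so no sequence is printed, and RefSeq served only for gene neighbours, since its assembly differs.

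Of several rows of a mature miRNA, that with the most counts was used, and CPM were recomputed over these. Libraries were compared with edgeR 4.0.16 in R 4.3.3 (TMM, quasi-likelihood test, Benjamini-Hochberg over the 367 miRNAs that reached 10 counts in a library; 1 residual degree of freedom). Each SE is the absolute fold divided by the root of F. DESeq2 1.42.0 was an alternative. The technical pair was averaged before any SD over n = 2 preparations. A count of 10 equalled 1.49 CPM in the biological replicate and 1.80 and 1.60 CPM in technical replicates 1 and 2.

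Named miRNAs were miR-101, miR-144, 3 neighbours in mean level on each side, the 5 nearest profiles, miR-375, the EZH2 list and cell type markers. miR-132, miR-146b, miR-2471 and others of the 20 most abundant are named after their values were seen. Seed matches and GC content, also planned, were not analysed here for want of sequences. miR-101 and the lists were chosen with earlier results of these data known.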

Additional observations from a re-analysis of the deposited data

How the results depend on the processing

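The share of miR-101 was 3.99% with its rows and those of all miRNAs summed, which counts miRNAs with several hairpins repeatedly, and 4.31% with miR-375 left out of the total (chosen after seeing the data). With a library left out it lay between 2.63% and 3.36%, the latter without the biological replicate. The log2 fold change of miR-101 was -0.81 with library totals, -0.64 with DESeq2's size factors in edgeR and in DESeq2 itself, -0.66 without a filter, -0.78 with miRNAs of at least 100 CPM, -0.62 with summed rows and -0.78 in the authors' log2 table. Without technical replicate 1 or 2 the log2 ratio of CPM was -0.81 or -0.82, with no test because no residual degrees of freedom were left. All these values keep the direction, and each moved by more than the SD of 0.006 between the technical replicates. The number of miRNAs that passed was 70 among the 167 with at least 100 CPM and 86 in DESeq2, against 139 of 367 in the main fit. The first of these totals rests on a smaller set and is not a fall in the share that passed. DESeq2 took in the same 367 miRNAs as the main fit, and fewer of them passed there. DESeq2 gave no adjusted p to some miRNAs of low counts, such as miR-145. With library totals 24 were higher and 86 lower, against 65 and 74. The counts for the EZH2 and vessel wall lists did not change with library totals or in DESeq2. No paired analysis was possible, because there was only 1 biological library and the labels match it to neither technical library. Identical or near-identical rows limit what can be said of single hairpins.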
